A study of Mus musculus with 21 samples.

Results

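Axon guidance ligands and receptors were 71 of the 21872 genes in each count table. They were chosen by family name: the class 3 to class 7 semaphorins, the plexins, Nrp1 and Nrp2, the Eph receptors, the ephrins, Slit1 to Slit3, Robo1 to Robo4, the netrins and netrin-Gs, Unc5a to Unc5d, and Dcc. There were 37 ligands and 34 receptors. The RNA came from brains of mice at 2 ages, embryonic day 18.5 (written E18.5) and 7 weeks after birth, and the study asks what copper does in the developing brain and in autism. Control animals received water, and treated animals received trientine (TETA), a copper-chelating drug, a condition that the labels call copper-deficient. There were 6 control and 6 TETA libraries at E18.5, and 5 control and 4 TETA libraries at 7 weeks. No strain, dose or length of treatment is given in the labels, and no allele or transgene is named for any group. The protocol names the prefrontal cortex of male mice at 7 weeks; region and sex at E18.5 are not stated. The labels do not say that replicates came from separate animals, so p-values measure the spread between these libraries, which may be technical.

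Growing axons carry receptors that read attractive and repulsive cues, and the paired families studied here supply most of the classical cues. Semaphorins act through plexins, with neuropilins as co-receptors for most secreted class 3 members; ephrins, which are bound to the membrane, act through Eph receptors, and the ephrin can also signal back into its own cell. Slits repel through Robo receptors, and netrin attracts through Dcc or repels through Unc5 receptors. In the forebrain these genes are known for steering callosal, corticofugal and thalamocortical axons before birth, and many of them are also found at adult synapses, in glia and in blood vessels.

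Total counts per library lay between 14678265 and 24308555 at the younger age and between 17838051 and 24035857 at the older. Levels are given as CPM, counts scaled for sequencing depth with TMM factors over all 21 libraries. Two-sided tests were edgeR's quasi-likelihood tests over all genes of a comparison, with Benjamini-Hochberg adjustment and a threshold of 0.05. Summed markers of cortical excitatory neurons lay at 2155 to 2398 CPM in control libraries at E18.5 and at 2481 to 2644 CPM at 7 weeks. Markers of striatal projection neurons were also present at both ages, at 651 to 770 CPM and 870 to 1085 CPM in the same libraries. The RNA came from whole tissue, so fewer cells of a type and less RNA per cell cannot be told apart in any result below.

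In control libraries the 71 genes together made up 0.683% of counts at E18.5 and 0.421% at 7 weeks. Their summed level was 6834 ± 273 CPM (SD, n = 6) at E18.5 and 4206 ± 41.2 CPM (SD, n = 5) at 7 weeks. The corresponding TETA libraries summed to 7003 ± 339 CPM (SD, n = 6) and 4127 ± 71.9 CPM (SD, n = 4). Plexins summed to 2155 ± 126 CPM in control libraries at E18.5 and to 995 ± 14.7 CPM at 7 weeks. All semaphorins together summed to 1228 CPM and 1033 CPM and all Eph receptors to 1117 CPM and 1002 CPM, so that plexins led at E18.5 and the 3 groups lay close together at 7 weeks. Per kilobase of exon, which allows genes to be compared, the leading control levels at E18.5 were those of Efnb3 (73.1 CPM per kb), Efnb2 (41.8 CPM per kb) and Plxna1 (37.3 CPM per kb). At 7 weeks the order was led by Sema7a (75.3 CPM per kb), a semaphorin anchored to the membrane by a lipid, followed by Ephb6 (65.8 CPM per kb), Sema6b (45.7 CPM per kb) and Epha4 (35.7 CPM per kb).

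**Figure D1:**
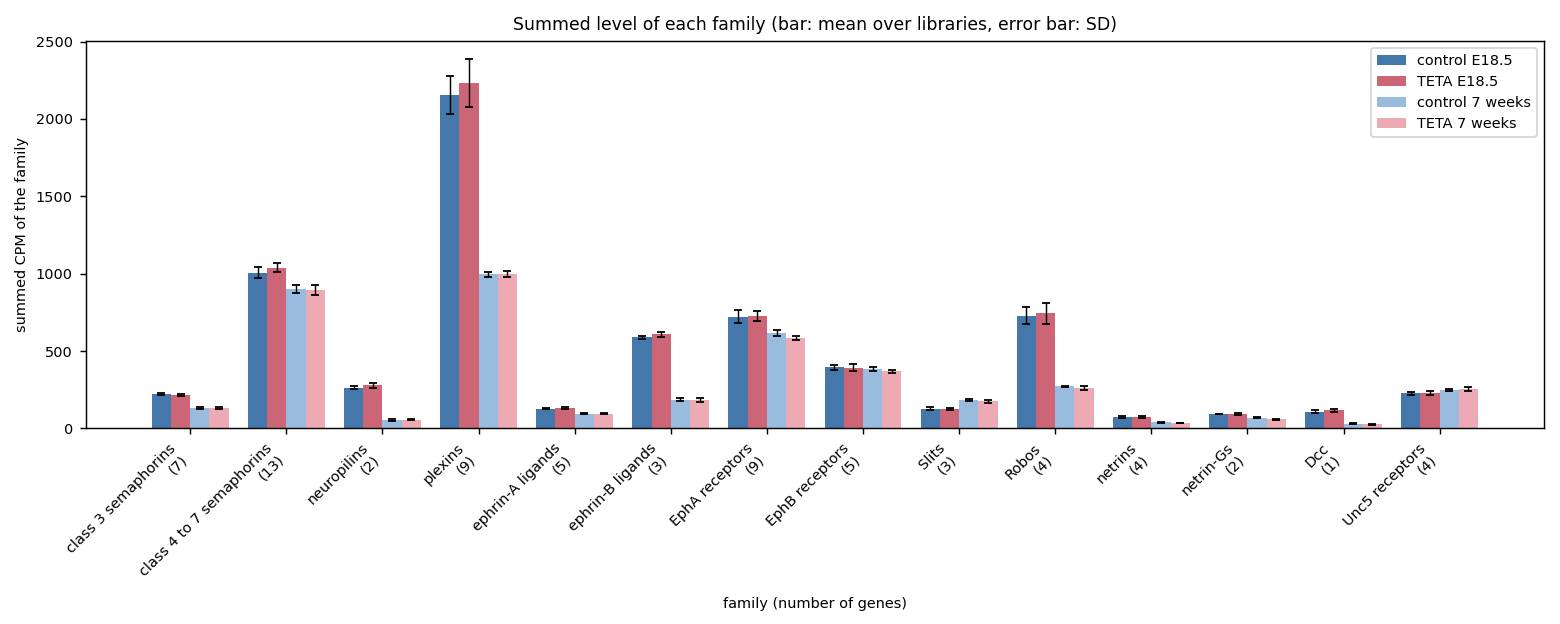
Summed CPM of each axon guidance family (vertical axis) by group of libraries; bars are means, error bars are SDs over 6 control and 6 TETA libraries at E18.5 and 5 control and 4 TETA libraries at 7 weeks, and the number of genes is under each name. Mean sums of 12 families stand lower at 7 weeks in both control and TETA libraries, and those of Slits and Unc5 receptors stand higher, while control and TETA bars of 1 age lie close together.

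Levels between the ages were compared first in control libraries, with a call requiring an absolute log2 difference of at least 1 as well. Of the 70 members tested, 37 (52.9%) were called, against 40.6% of all 14375 genes tested. At 7 weeks 13 members (18.6%) were higher, against 22.8% of all genes, and 24 (34.3%) were lower, against 17.8% of all genes. The median log2 difference was -0.53 over the members and -0.02 over all genes. Epha1, at a mean of 0.123 CPM in control libraries at 7 weeks, did not pass the filter on low counts. An antisense gene covers 10.5% of the exon bases of Efna4, 1 of the genes described below. Age cannot be told apart from count table, dissected region or sex here. Cell makeup also moved with age: summed oligodendrocyte lineage markers stood at 206 to 227 CPM at E18.5 and at 6805 to 7991 CPM at 7 weeks, with 6 of 9 markers higher, and summed meningeal markers at 7.60 to 16.8 CPM and 57.8 to 69.0 CPM, with 6 of 6 higher. Summed erythroid markers stood at 127 to 258 CPM at E18.5 and at 35.2 to 52.8 CPM at 7 weeks, with 5 of 5 lower, and choroid plexus markers at 0.885 to 3.39 CPM and 3.18 to 61.1 CPM, with 3 of 3 tested higher. Of 13 striatal markers 5 were higher and 1 lower (651 to 770 CPM and 870 to 1085 CPM in sum). Of 5 thalamic markers 1 was higher and 3 lower (62.0 to 75.5 CPM and 118 to 132 CPM). Of 9 cortical excitatory markers 1 was higher and 4 lower, with a median log2 difference of -0.54, though their sum stood higher at 7 weeks. Of 7 endothelial markers 2 were higher and 1 lower (141 to 160 CPM and 169 to 191 CPM). Their part in the differences between ages was not tested.

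Among the ligands, 7 of 37 were higher at 7 weeks and 12 were lower, against 22.8% and 17.8% of all genes. Ntn5, a secreted member of the netrin family, was at 0 in 2 of the 6 control libraries at E18.5, with a highest value of 0.213 CPM. At 7 weeks it stood at 2.31, 2.26, 2.55, 2.32 and 2.94 CPM, above every library at E18.5. Its log2 difference of 4.84 (SE 0.32) was the largest rise of any member, but its counts at E18.5 had been divided by 11. With the counts as deposited the value was 1.54 (SE 0.46). Ntn5 passed the filter on low counts only through its 7-week levels, which favours a rise. It was not called with a mean of at least 50 counts. Slit3, a secreted Robo ligand, had a lowest, median and highest level of 9.86, 12.1 and 16.1 CPM at E18.5 and stood at 48.9, 46.5, 47.8, 47.9 and 44.1 CPM at 7 weeks, a log2 rise of 1.91 (SE 0.077).

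The other 2 Slits were not called. Slit2 was at 28.7, 32.8 and 39.1 CPM (lowest, median, highest) in control libraries at E18.5 and at 58.7 to 66.0 CPM at 7 weeks, a log2 difference of 0.94 (SE 0.061) that stayed under the size required for a call. Slit1 stood at 72.5 to 92.1 CPM at E18.5 and at 71.4 to 78.2 CPM at 7 weeks, with overlapping groups and a log2 difference of -0.10 (SE 0.053).

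Class 3 semaphorins split evenly, with Sema3d, Sema3e and Sema3g higher and Sema3a, Sema3c and Sema3f lower. Sema3g, which is known from endothelium, had a lowest, median and highest level of 1.57, 1.91 and 2.27 CPM at E18.5 and stood at 7.47, 5.72, 7.14, 7.55 and 8.46 CPM at 7 weeks, with no overlap and a log2 rise of 1.92 (SE 0.12). Sema3e, the ligand of Plxnd1, went from 9.86 to 12.9 CPM at E18.5 to 32.7 to 40.0 CPM at 7 weeks (log2 1.67, SE 0.067). Sema3f, a repellent that binds Nrp2, was at 48.5, 52.0 and 60.8 CPM at E18.5 and at 6.64, 6.79, 7.14, 6.15 and 6.15 CPM at 7 weeks. Every 7-week library lay far below the E18.5 libraries, a log2 fall of -3.01 (SE 0.068). Sema3a, the classical collapsing factor for growth cones, fell by 1.01 (SE 0.046) on the log2 scale, so close to the size limit that the call was lost with DESeq2, with the counts as deposited, with a mean of at least 50 counts and on leaving out each of 3 libraries in turn.

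Of the 13 semaphorins of classes 4 to 7, Sema4d and Sema7a were higher and Sema4c, Sema4g and Sema6c were lower at 7 weeks. Sema4g was at 155, 163 and 173 CPM (lowest, median, highest) at E18.5 and at 17.4, 18.9, 18.3, 19.4 and 19.2 CPM at 7 weeks, a log2 fall of -3.12 (SE 0.045). Sema6c, a transmembrane semaphorin, went from 126 to 143 CPM down to 17.1 to 20.8 CPM, a log2 fall of -2.85 (SE 0.050). Neither gene had any overlap between the ages.

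Ephrins had 5 of 8 members lower at 7 weeks and none higher, against 17.8% and 22.8% of all genes. All 3 ephrin-Bs, the transmembrane ligands of EphB receptors, fell: Efnb1 by 2.04 (SE 0.069), Efnb2 by 1.95 (SE 0.044) and Efnb3 by 1.32 (SE 0.038) on the log2 scale. Efnb3, a midline barrier to corticospinal axons, stood at 225, 232 and 245 CPM (lowest, median, highest) at E18.5 and at 88.6 to 97.2 CPM at 7 weeks. The largest fall of any member was that of Efna4, a lipid-anchored ephrin. It was at 6.78, 7.92 and 9.73 CPM at E18.5 and at 0.231, 0.222, 0.227, 0.540 and 0.362 CPM at 7 weeks. The log2 difference of -4.67 (SE 0.19) rests on few counts at 7 weeks. Efna4 passed the filter on low counts only through its E18.5 levels, which favours a fall. Efna5, by contrast, stood higher at 7 weeks, at 23.2 to 28.7 CPM against 15.02 to 16.68 CPM, with a log2 difference of 0.71 (SE 0.060), under the size needed for a call. Ntn1, the attractant read by Dcc, was at 32.0 to 45.03 CPM at E18.5 and at 11.3 to 14.6 CPM at 7 weeks, and fell by 1.65 (SE 0.077) on the log2 scale. Both netrin-Gs, which sit on axons and bind postsynaptic partners, stayed under the size limit.

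Among the receptors, 6 of 33 tested were higher at 7 weeks and 12 were lower, against 22.8% and 17.8% of all genes. Both neuropilins fell, Nrp1 by 1.51 (SE 0.074) and Nrp2 by 2.71 (SE 0.045) on the log2 scale. Nrp2 stood at 177, 188 and 194 CPM at E18.5 and at 27.1, 29.3, 25.7, 29.8 and 29.1 CPM at 7 weeks, with a wide gap between the ages. Of 9 plexins, 4 were lower (Plxna2, Plxna3, Plxna4 and Plxnb2) and 1 was higher, against 17.8% and 22.8% of all genes. Plxna3, a partner of neuropilins in class 3 semaphorin receptors, was at 233, 246 and 265 CPM at E18.5 and at 27.8, 23.2, 26.0, 28.3 and 25.0 CPM at 7 weeks, a log2 fall of -3.25 (SE 0.051). The plexin that rose was Plxnb3, which is known from the oligodendrocyte lineage. It stood at 0.720, 0.857 and 1.89 CPM at E18.5 and at 20.6, 23.8, 19.2, 22.2 and 22.9 CPM at 7 weeks, a log2 difference of 4.37 (SE 0.13), in libraries whose oligodendrocyte markers rose by a median of 6.62 on the log2 scale. Plxna4 and Plxnd1 stood at 348 to 446 CPM and 171 to 194 CPM at E18.5, and at 139 to 153 CPM and 126 to 127 CPM at 7 weeks. The first fell by 1.43 (SE 0.050) on the log2 scale, and the second, at -0.51 (SE 0.036), was not called.

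Of 13 Eph receptors tested, 4 were higher and 3 lower, against 22.8% and 17.8% of all genes. Epha10, a receptor without kinase activity, had a lowest, median and highest level of 8.26, 9.43 and 10.99 CPM at E18.5 and stood at 50.6, 53.6, 49.5, 49.8 and 53.8 CPM at 7 weeks, a log2 rise of 2.44 (SE 0.064). Ephb6, which also lacks kinase activity, was at 73.1 to 77.3 CPM at E18.5 and at 236 to 258 CPM at 7 weeks (log2 1.73, SE 0.036). Epha3 went the other way, from 99.3, 110 and 111 CPM at E18.5 to 10.1, 12.1, 10.3, 11.1 and 10.5 CPM at 7 weeks, a log2 fall of -3.30 (SE 0.054). Epha4, which binds ephrins of both classes, and Epha5, a receptor for ephrin-As, were not called, with log2 differences of 0.68 (SE 0.042) and -0.98 (SE 0.043). None of these 5 receptors had overlapping values between the ages, which held for 64 of the 70 members tested (91.4%) and for 80.2% of all genes.

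Robo1 and Robo2, the main Slit receptors of forebrain axons, were lower at 7 weeks. Robo1 stood at 312, 355 and 396 CPM at E18.5 and at 60.6, 59.0, 60.7, 64.0 and 56.1 CPM at 7 weeks, a log2 fall of -2.56 (SE 0.052). Robo2 stood at 318, 368 and 398 CPM at E18.5 and at 176, 181, 185, 176 and 172 CPM at 7 weeks, a log2 fall of -1.03 (SE 0.048) that lies near the size limit; it was not called with a mean of at least 50 counts. Robo3, known from commissural axons of the hindbrain and spinal cord, was at 2.49, 2.75 and 2.96 CPM at E18.5 and at 26.1, 28.1, 23.9, 27.0 and 31.5 CPM at 7 weeks. Each 7-week library was well above every E18.5 library, a log2 rise of 3.33 (SE 0.084). Dcc was at 90.3, 110 and 120 CPM at E18.5 and at 28.4, 30.9, 27.8, 32.9 and 27.6 CPM at 7 weeks, a log2 fall of -1.87 (SE 0.063). None of the 4 Unc5 receptors was called; Unc5c, at 50.6 to 66.5 CPM and 35.4 to 40.5 CPM, and Unc5d, at 77.8 to 93.9 CPM and 53.9 to 61.9 CPM, differed by -0.51 (SE 0.062) and -0.55 (SE 0.047) on the log2 scale.

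**Figure D2:**
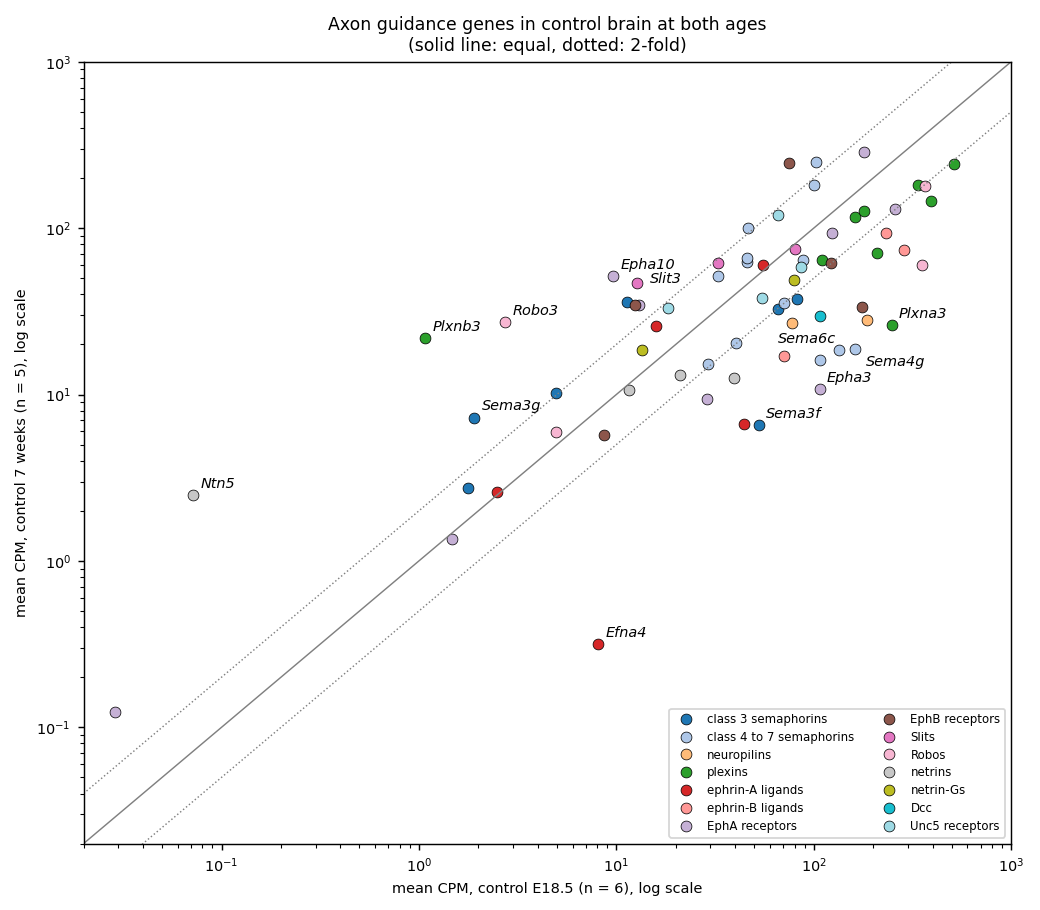
Mean CPM of each axon guidance gene in control libraries at E18.5 (horizontal axis, log scale, n = 6) and at 7 weeks (vertical axis, log scale, n = 5); the solid line marks equal levels and the dotted lines a log2 difference of 1, and colours mark families. More points lie under the lower dotted line than above the upper one, and Ntn5, Plxnb3 and Robo3 stand farthest above.

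The same contrast was then made in the TETA libraries, which the control contrast did not use. It called 40 of 70 members (57.1%), against 39.8% of all 14337 genes tested, with 13 higher (18.6%, against 22.3% of all genes) and 27 lower (38.6%, against 17.5%). All 13 genes called higher in control libraries were called higher here, and all 24 called lower were called lower, 88.9% of the TETA list. Age goes with count table, dissected region and sex in both contrasts, so the shared calls cannot separate them. The share of all genes called in both was not counted. Epha5, Ephb1 and Sema6a were called lower in the TETA libraries alone. Their log2 differences in control and TETA libraries lay on either side of the size limit. They were -0.98 and -1.08 for Epha5, -0.98 and -1.14 for Ephb1 and -0.97 and -1.14 for Sema6a. Library totals without TMM factors moved the median of all genes by -0.15 in control libraries and -0.12 in TETA libraries, and then gave 11 higher and 30 lower members in each.

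The effect of TETA at E18.5 was examined within that age. None of the 69 members tested passed the adjusted threshold, as for all 13794 genes tested (0%). At an unadjusted p under 0.05 there were 4 members (5.80%), against 4.78% of all genes, and DESeq2 called 10 genes overall and 0 members. Epha1 and Ntn5 did not pass the filter. The 95% interval of the log2 change lay within ±0.2 for 49 members and within ±0.5 for 67. The median log2 change was 0.03 over the members and -0.00 over all genes. Estimates were above 0 for 46 members (66.7%), against 48.2% of all genes; this count of members ran from 40 to 52 over the alternative settings, with the lowest value on leaving out control replicate 1-1 or TETA replicate 3-1.

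Efna3, a lipid-anchored ephrin-A, had the smallest p of any member at this age. Its lowest, median and highest levels were 52.2, 55.8 and 57.8 CPM in control libraries and 58.9, 59.1 and 64.4 CPM in TETA libraries. It was the single member whose groups did not overlap at E18.5 (1.45% of members, against 0.319% of all genes). The log2 change was 0.12 (SE 0.037), with an adjusted p of 0.801 by edgeR's quasi-likelihood test. GENCODE places an antisense gene over 14.1% of its exon bases.

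The next 3 members by p had overlapping groups. Unc5b, a netrin receptor known from endothelium, stood at 15.1, 18.8 and 20.1 CPM in control and 19.1, 20.6 and 23.8 CPM in TETA libraries, a log2 change of 0.18 (SE 0.070). Summed endothelial markers, with 7 of 7 tested and 0 called, lay at 141 to 160 CPM in control and 160 to 172 CPM in TETA libraries, a median log2 change of 0.12; their part in the Unc5b value was not tested. Ephb6 had a log2 change of -0.09 (SE 0.039), with TETA libraries at 65.5 to 76.2 CPM and control libraries at 73.1 to 77.3 CPM. Sema4b, a transmembrane semaphorin, had a change of 0.12 (SE 0.053), at 28.4 to 34.9 CPM in TETA and 27.1 to 30.4 CPM in control libraries. Adjusted p-values of these 3 genes ran from 0.941 to 0.996 by edgeR's quasi-likelihood test. The 6 members next in order were Unc5a (0.08), Sema3b (-0.39, SE 0.21, at 1.37 to 2.22 CPM in control and 0.709 to 2.31 CPM in TETA libraries), Efna4 (0.17), Sema6d (0.12), Sema4c (0.07) and Sema6a (0.08), all with adjusted p of 0.996 by edgeR's quasi-likelihood test.

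Family medians at E18.5 stayed close to 0. They ran from -0.05 for the 5 ephrin-As to 0.10 for Dcc, the only member of its family, and were 0.03 for the 36 ligands tested and 0.02 for the 33 receptors tested. A fixed set of 19 genes, most of them known from forebrain wiring, had 0 called and a median of 0.03. It includes Sema3a, Nrp1, Plxna4, Robo1, Robo2, Slit1, Ntn1 and Dcc, and also Robo3. Within it, Dcc had the largest estimate, 0.10 (SE 0.062), with control libraries at 90.3, 110 and 120 CPM and TETA libraries at 105, 113 and 133 CPM (lowest, median, highest), which overlapped. Robo1 (0.03, SE 0.056) and Robo2 (0.03, SE 0.058) differed by less than their errors.

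At 7 weeks, 14 of the 69 members tested (20.3%) passed the adjusted threshold, against 9.96% of all 14240 genes tested. There were 8 higher in TETA libraries (11.6%, against 5.67% of all genes) and 6 lower (8.70%, against 4.28%). The higher ones were the ligands Sema4a, Efnb1 and Ntn5 and the receptors Epha10, Robo3, Plxna1, Plxnc1 and Unc5a; the lower ones were the ligands Slit2, Sema6b and Ntng2 and the receptors Robo2, Epha7 and Unc5d. Changes were small, from 0.13 to 0.49 in absolute log2 size, and the median over the members was -0.03, against 0.00 over all genes. Epha1 and Efna4 did not pass the filter. At an unadjusted p under 0.05 there were 30 members (43.5%), against 24% of all genes. Values of the groups did not overlap for 7 members (10.1%), against 11.2% of all genes: Sema4a, Epha10, Ntn5, Slit2, Sema6b, Robo2 and Epha5, the last of which was not called.

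Markers of another tissue moved with treatment at this age. All 13 striatal projection neuron markers were lower in TETA libraries, by a median of -1.34 on the log2 scale; their summed level was 870 to 1085 CPM in control and 392 to 521 CPM in TETA libraries, and none was at 0 in all libraries. With the striatal score as a covariate, 0 of the 14 genes and 1 gene in all passed the threshold, with standard errors of 0.11 to 0.44 for the 14 genes; Sema4a then stood at 0.18 (SE 0.13) and Slit2 at -0.20 (SE 0.15). The direction turned for 3 of the 14, all higher without the covariate: Robo3 then stood at -0.28, Epha10 at -0.051 and Ntn5 at -0.034. Because the striatal levels of the groups do not overlap, treatment and striatal content cannot be told apart in these libraries. Of 6 meningeal markers, 3 were lower, with summed levels of 57.8 to 69.0 CPM in control and 37.3 to 56.1 CPM in TETA libraries. Summed cortical excitatory markers (1 of 9 higher, 2 lower) lay at 2481 to 2644 CPM and 2463 to 2588 CPM, and oligodendrocyte lineage markers (1 of 9 lower) at 6805 to 7991 CPM and 6039 to 7084 CPM. Endothelial markers (1 of 7 higher) lay at 169 to 191 CPM and 172 to 199 CPM, and none of the choroid plexus (4 tested), thalamic (5 tested) or erythroid (5 tested) markers was called. Summed choroid plexus markers lay at 3.18 to 61.1 CPM in control and 3.50 to 6.19 CPM in TETA libraries, the highest value being that of control replicate 4; without that library 12 of the 14 genes passed the threshold, all but Ntn5 and Unc5d. The part of the meningeal and oligodendrocyte differences in the results below was not tested.

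**Figure D3:**
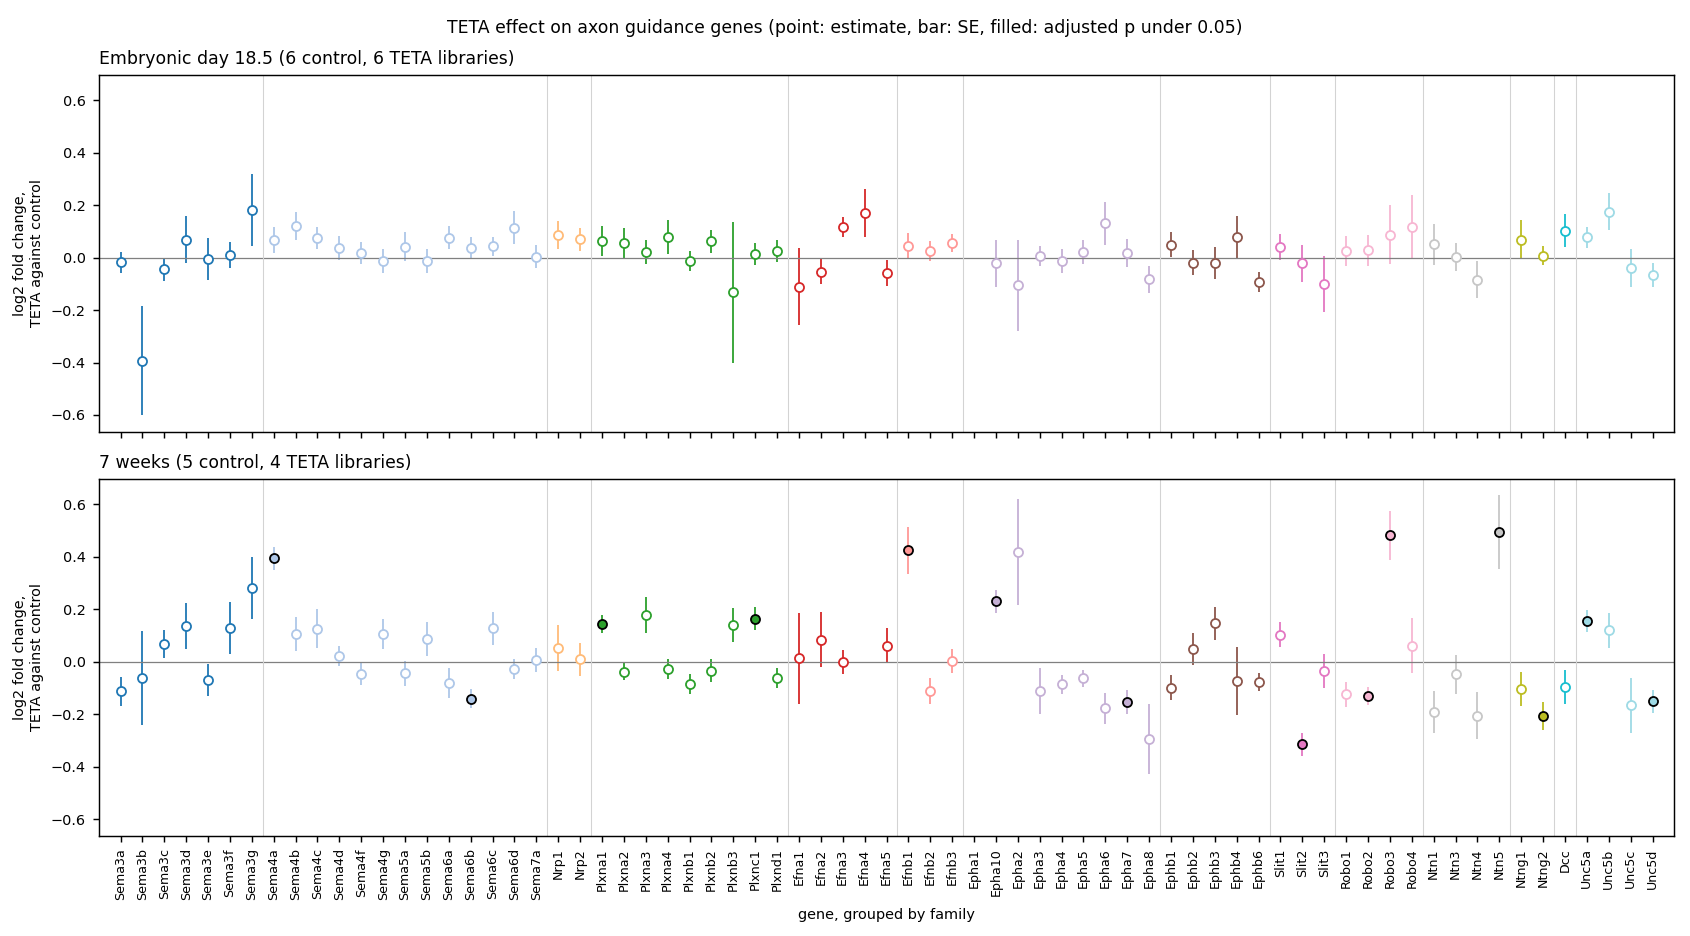
Log2 fold change of TETA against control for each axon guidance gene tested (vertical axis), ordered by family along the horizontal axis, at E18.5 (upper panel) and at 7 weeks (lower panel); bars are standard errors and filled points passed an adjusted p of 0.05. No point is filled at E18.5 and 14 are at 7 weeks, 8 above 0 and 6 below.

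Sema4a, a transmembrane semaphorin known from immune cells and retina, had the smallest p of any member. Its gene lies at chr3:88435959-88461182 on the minus strand (GRCm38, GENCODE). Control libraries stood at 53.2, 53.9, 49.7, 50.7 and 49.96 CPM and TETA libraries at 65.2, 63.8, 70.9 and 68.7 CPM. Every TETA library was above every control library, and the log2 rise was 0.39 (SE 0.043), with an adjusted p of 5.33e-06 by edgeR's quasi-likelihood test. It was called in all 9 fits that left out 1 library.

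Slit2, the secreted repellent read by Robo1 and Robo2, fell. Its gene lies at chr5:47983138-48307733 on the plus strand (GRCm38, GENCODE). Control libraries stood at 66.0, 58.7, 61.4, 63.7 and 60.9 CPM and TETA libraries at 51.1, 46.8, 48.4 and 51.9 CPM. The groups did not overlap, with a log2 change of -0.31 (SE 0.044), an adjusted p of 0.00013 by edgeR's quasi-likelihood test and a call in all 9 fits that left out 1 library. The other 2 Slits were not called, at 0.10 (SE 0.048) for Slit1 and -0.03 (SE 0.064) for Slit3.

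Efnb1, whose gene lies at chrX:99136130-99148991 on the plus strand, is an ephrin-B known from craniofacial and cortical development. Control libraries stood at 19.9, 14.9, 14.5, 18.5 and 17.4 CPM and TETA libraries at 23.4, 24.1, 24.4 and 19.0 CPM. TETA replicate 4 lay under the highest control library, and the other 3 TETA libraries lay above all controls. The log2 rise was 0.42 (SE 0.090), with an adjusted p of 0.00419 by edgeR's quasi-likelihood test, and it was called in all 9 fits that left out 1 library. Neither Efnb2, at -0.11, nor Efnb3, at 0.00 (SE 0.047), was called.

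Ntng2, a netrin-G that binds the postsynaptic protein Lrrc4, lies at chr2:29194541-29253005 on the minus strand. Control libraries stood at 50.1, 51.7, 42.8, 50.5 and 50.5 CPM and TETA libraries at 40.6, 43.3, 41.4 and 44.1 CPM. Only control replicate 3 fell within the range of the TETA libraries; the log2 change was -0.21 (SE 0.052), with an adjusted p of 0.0134 by edgeR's quasi-likelihood test, and the gene was called in all 9 fits that left out 1 library. GENCODE places a transcript of the same strand over 558 of its exon bases.

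Sema6b and Ntn5 were the remaining ligands past the threshold. Sema6b, a transmembrane semaphorin that signals through plexin-As, stood at 177, 182, 179, 176 and 194 CPM in control and 163, 168, 156 and 166 CPM in TETA libraries. The groups did not overlap, and the log2 change was -0.14 (SE 0.036, adjusted p = 0.0154 by edgeR's quasi-likelihood test). It was lost on leaving out TETA replicate 3. Ntn5 stood at 2.31, 2.26, 2.55, 2.32 and 2.94 CPM in control and 3.56, 3.04, 3.90 and 3.30 CPM in TETA libraries. These groups did not overlap either, but the level was low and the call (log2 0.49, SE 0.14, adjusted p = 0.0309 by edgeR's test) was lost in 5 of 9 fits that left out 1 library and with DESeq2. Sec1, on the opposite strand, shares 23.4% of the exon bases of Ntn5; the library kit marks strand, but whether counting used it is not given, so reads of such pairs may not be separated.

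**Figure D4:**
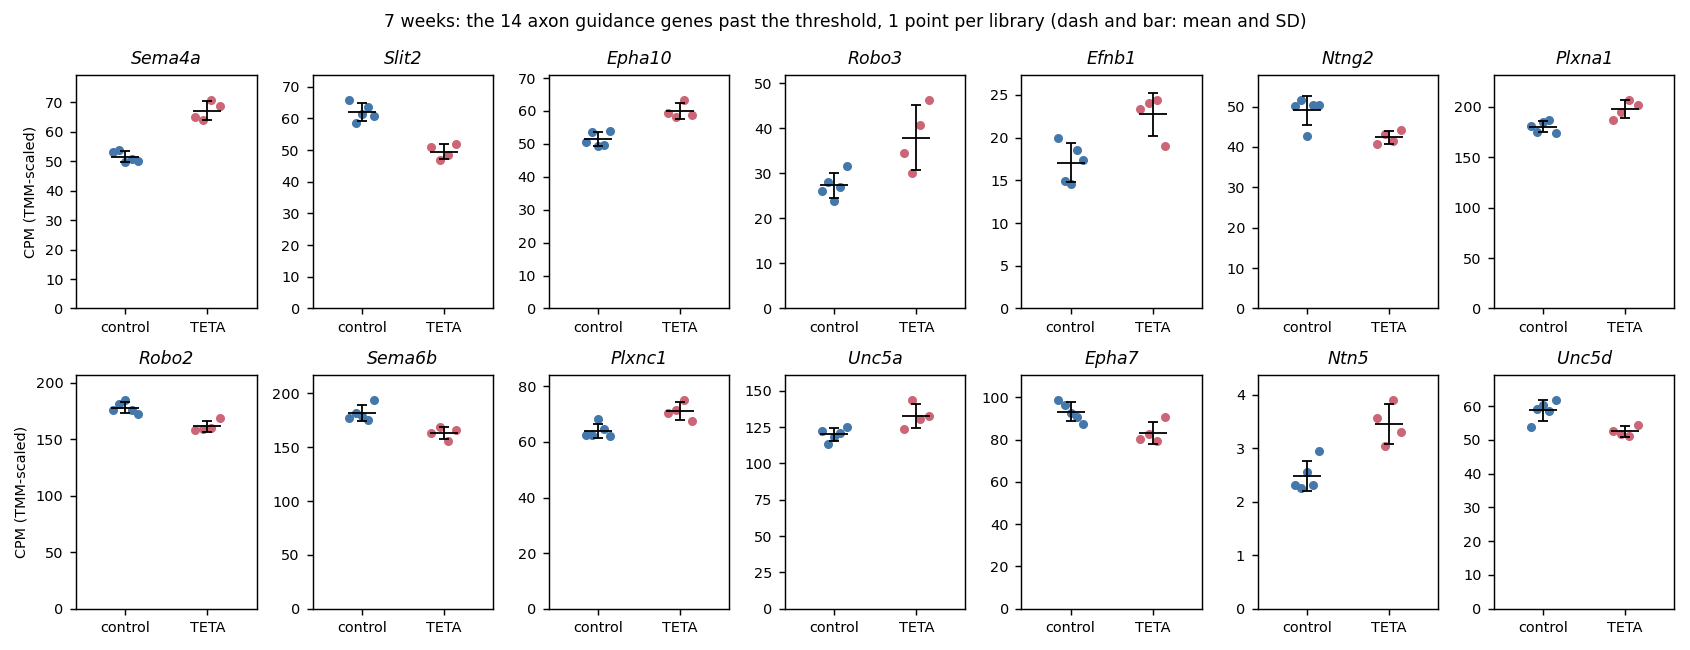
CPM of the 14 axon guidance genes past the threshold at 7 weeks (vertical axes, linear, from 0), with 1 point per library for 5 control and 4 TETA libraries; dashes and bars are means and SDs. Sema4a, Slit2, Epha10, Robo2, Sema6b and Ntn5 show no overlap between the groups, and the other 8 genes do.

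Epha10 had the smallest p among the receptors. Its gene lies at chr4:124880899-124917800 on the plus strand. Control libraries stood at 50.6, 53.6, 49.5, 49.8 and 53.8 CPM and TETA libraries at 59.3, 58.1, 63.5 and 58.8 CPM. The groups did not overlap; the log2 rise was 0.23 (SE 0.043), with an adjusted p of 0.00156 by edgeR's quasi-likelihood test. Epha7, a receptor known to shape cortical and thalamic projections, was lower, at 98.8, 96.4, 92.3, 90.8 and 87.5 CPM in control and 80.3, 82.5, 79.3 and 90.6 CPM in TETA libraries. TETA replicate 4 lay among the controls, and this call (log2 -0.15, SE 0.044, adjusted p = 0.0307 by edgeR's test) was lost in 5 of 9 fits that left out 1 library. None of the 5 EphB receptors was called. Epha4 and Epha5 had changes of -0.09 (SE 0.037) and -0.06 (SE 0.033). The lowest control library of Epha5 was at 125.4 CPM and the highest TETA library at 125.2 CPM.

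Of the 4 Robo receptors, Robo3 was higher and Robo2 lower. Robo3, at chr9:37415669-37433246 on the minus strand, stood at 26.1, 28.1, 23.9, 27.0 and 31.5 CPM in control and 34.5, 30.1, 40.8 and 46.4 CPM in TETA libraries. TETA replicate 2 lay within the control range and the spread among TETA libraries was wide; the log2 rise was 0.48 (SE 0.094), with an adjusted p of 0.00209 by edgeR's quasi-likelihood test, and like that of Epha10 it was called in all 9 fits that left out 1 library. Robo2 stood at 176, 181, 185, 176 and 172 CPM in control and 158, 159, 160 and 169 CPM in TETA libraries. The groups did not overlap, and the log2 change was -0.13 (SE 0.033, adjusted p = 0.0151 by edgeR's test); the call was lost on leaving out TETA replicate 1. With the striatal covariate both stood below 0, Robo3 at -0.28 and Robo2 at -0.11, and neither was called. Robo1 and Robo4 were not called, at -0.12 (SE 0.047) and 0.06 (SE 0.10).

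Plxna1, Plxnc1, Unc5a and Unc5d completed the called receptors. Plxna1, a receptor subunit for class 3 and class 6 semaphorins, stood at 181, 176, 185, 188 and 174 CPM in control and 188, 195, 207 and 202 CPM in TETA libraries. The lowest TETA library lay just under the highest control library, and the log2 rise was 0.14 (SE 0.036, adjusted p = 0.0134 by edgeR's quasi-likelihood test). Plxnc1, the receptor of Sema7a, stood at 62.3, 62.6, 68.2, 64.6 and 62.2 CPM in control and 70.3, 71.5, 75.1 and 67.4 CPM in TETA libraries, a rise of 0.16 (SE 0.043, adjusted p = 0.0166 by edgeR's test). Control replicate 3 was above TETA replicate 4. An antisense gene covers 10.7% of the exon bases of Plxna1. Both plexin calls were lost on leaving out TETA replicate 3, and Sema7a itself was at 0.01.

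Unc5a, a netrin receptor that also acts in cell survival, stood at 122, 113, 118, 121 and 125 CPM in control and 124, 144, 131 and 132 CPM in TETA libraries. TETA replicate 1 lay under the highest control library; the log2 rise was 0.15 (SE 0.042, adjusted p = 0.0215 by edgeR's quasi-likelihood test) and was lost in 3 of 9 fits that left out 1 library. Unc5d, which is known from migrating upper layer neurons, stood at 53.9, 59.1, 60.4, 58.4 and 61.9 CPM in control and 52.8, 51.7, 51.1 and 54.5 CPM in TETA libraries. Its log2 change of -0.15 (SE 0.044, adjusted p = 0.0334 by edgeR's test) was called in only 2 of 9 such fits and was lost with library totals without TMM factors. Leaving out TETA replicate 3 left 8 members called at 7 weeks, 7 of them among the 14 and Epha6 in addition.

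In the fixed set of 19 genes, 1 was higher at 7 weeks (Robo3) and 3 were lower (Slit2, Robo2 and Unc5d). The corresponding shares of all genes were 5.67% and 4.28%. The median log2 change of the set was -0.07, and its other genes did not pass the threshold. Neuropilin estimates were 0.05 (SE 0.088) for Nrp1 and 0.01 (SE 0.063) for Nrp2, and Dcc was at -0.10 (SE 0.065). Ntn1 was at -0.19 (SE 0.081), with control libraries at 11.3 to 14.6 CPM and TETA libraries at 10.1 to 11.4 CPM. Sema3a, Sema3e, Plxna4, Plxnd1 and Efna5 had log2 changes of -0.11, -0.07, -0.03, -0.06 and 0.06. Unc5c, at -0.17 (SE 0.10), varied widely among TETA libraries, from 22.9 to 42.1 CPM. No class 3 semaphorin, neuropilin, ephrin-A or EphB receptor was called in the TETA comparison at either age.

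Promoters of 4 of the 14 genes are shown because these windows, the 250 bases before the start site in RefSeq (GRCm38.p6), had a single entry and at most 30 exon bases; 2 of the genes rose from moderate levels (Plxnc1, Unc5a), 1 fell (Slit2) and 1 was scarce (Ntn5). Capitals mark the GC box GGGCGG and the TATA box TATAAA on either strand; the third motif searched, CCAAT, was found in none of the 4. The windows are chr5:47982905-47983154 (plus strand) for Slit2, chr10:94944846-94945095 (minus) for Plxnc1, chr13:54949161-54949410 (plus) for Unc5a and chr7:45683772-45684021 (plus) for Ntn5, each written 5′ to 3′ along the gene.
Slit2: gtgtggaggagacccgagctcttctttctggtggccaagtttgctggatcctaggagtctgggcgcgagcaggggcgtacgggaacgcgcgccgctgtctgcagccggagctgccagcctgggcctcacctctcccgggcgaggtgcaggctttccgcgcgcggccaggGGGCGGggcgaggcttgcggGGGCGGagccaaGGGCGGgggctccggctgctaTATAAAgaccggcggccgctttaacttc
Plxnc1: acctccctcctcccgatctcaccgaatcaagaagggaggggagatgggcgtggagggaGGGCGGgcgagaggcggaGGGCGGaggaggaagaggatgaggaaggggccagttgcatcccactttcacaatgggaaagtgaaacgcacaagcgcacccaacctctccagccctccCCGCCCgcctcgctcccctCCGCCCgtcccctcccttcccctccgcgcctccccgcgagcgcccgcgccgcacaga
Unc5a: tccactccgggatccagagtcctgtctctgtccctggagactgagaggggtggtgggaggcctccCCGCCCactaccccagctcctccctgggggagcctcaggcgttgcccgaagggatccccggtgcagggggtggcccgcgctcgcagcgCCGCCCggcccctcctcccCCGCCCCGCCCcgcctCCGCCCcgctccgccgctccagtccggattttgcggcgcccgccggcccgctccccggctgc
Ntn5: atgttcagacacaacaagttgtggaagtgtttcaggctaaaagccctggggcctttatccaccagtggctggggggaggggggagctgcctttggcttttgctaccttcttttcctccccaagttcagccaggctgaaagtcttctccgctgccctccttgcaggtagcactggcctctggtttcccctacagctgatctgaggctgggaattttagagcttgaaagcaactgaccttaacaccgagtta

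The Slit2 window held 3 GC boxes and a TATA box whose first base lies at position -28 from the RefSeq start, with a GC content of 69.6%. GENCODE starts Slit2 inside this window, with 17 exon bases there, so the position depends on the start used. Plxnc1 held 4 GC boxes and Unc5a held 5, 2 of which overlap. Ntn5 held none of the 3 motifs and had a GC content of 52.8% with 2 CpG sites, against 25 in each of Slit2 and Unc5a and 22 in Plxnc1. Over all members found in RefSeq's promoter table (61 of 71, with 77 promoters), GGGCGG occurred in 70.1% of windows, against 32.7% of all 32851 promoters. The corresponding shares were 27.3% and 33.8% for CCAAT and 2.60% and 12.4% for TATAAA. Median GC content was 64.4% in the members' windows and 52.4% in all windows, and the motif counts were not corrected for it. A match is a run of letters and not a measured binding site.

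Whether the TETA effect differed between the ages was tested directly, as an interaction over all 21 libraries. It was called for 2 of 70 members (2.86%), against 3.1% of all 14660 genes tested. For Sema4a the effect was larger at 7 weeks by 0.31 (SE 0.065) on the log2 scale, with an adjusted p of 0.00459 by edgeR's quasi-likelihood test; the TETA estimate was 0.07 at E18.5 and 0.39 at 7 weeks. Control and TETA libraries at E18.5 stood at 30.3, 33.1 and 34.2 CPM and 31.6, 34.1 and 36.7 CPM (lowest, median, highest), overlapping where the 7-week groups did not. This call held in all 21 fits that left out 1 library. For Efnb1 the difference was 0.37 (SE 0.10, adjusted p = 0.0451 by edgeR's test), from estimates of 0.05 and 0.42, and it was lost in 15 of those 21 fits and with the counts as deposited. Next in order were Ntng2 (-0.23, adjusted p = 0.0515), Slit2 (-0.31, adjusted p = 0.0614) and Sema6b (-0.19, adjusted p = 0.0722), all by edgeR's quasi-likelihood test. For the other called genes at 7 weeks, a difference between the ages did not pass the threshold.

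Partners and intracellular effectors of these receptors, a list of 60 genes that are not members, were read in the same fits. At E18.5, 0 of 60 were called. At 7 weeks 4 of 59 tested were higher in TETA libraries and 5 were lower, against 5.67% and 4.28% of all genes, with a median log2 change of 0.00. Srgap1, a GTPase-activating protein that binds Robo receptors, went from 21.03 ± 0.911 CPM (SD, n = 5) in control to 16.2 ± 1.957 CPM (SD, n = 4) in TETA libraries, a log2 change of -0.37 (SE 0.073, adjusted p = 0.00226 by edgeR's quasi-likelihood test). Dock1, a Rac exchange factor used downstream of Dcc, fell by 0.25 (SE 0.049), and Lrrc4c, the postsynaptic partner of Ntng1, fell by 0.14 (SE 0.039) on the log2 scale. Ngef, an exchange factor bound by EphA receptors, fell by 0.11 (SE 0.031). Among the 4 that rose was Mical2, of a family of plexin-linked oxidoreductases, by 0.17 (SE 0.044). Between the ages in control libraries, 19 of 60 were lower at 7 weeks and 10 higher, against 17.8% and 22.8% of all genes, with a median of -0.59; Srgap1 fell by 3.17 (SE 0.059), while Mical2 and Ngef rose by 2.78 (SE 0.042) and 2.91 (SE 0.039).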

How the data were processed

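The authors deposited 2 tables of whole-number read counts per gene symbol, 1 for each age; the reads had been processed with STAR 2.7.1a, featureCounts 2.0.1 and build mm10, per the submitters' processing notes, and the annotation is not given in the sources used here. At E18.5, 1940 genes at 0 in control replicate 1-1 held only multiples of 11 in the other libraries; 2 were members (Epha1, Ntn5), and these genes were divided by 11. The members and lists were chosen with earlier results of these data known. Genes were filtered with filterByExpr (minimum count 10), scaled by TMM and tested with edgeR 4.0.16 in R 4.3.3, after a check on simulated counts. Standard errors came from the F statistic, intervals span 1.96 standard errors, and exon lengths and positions came from GENCODE's mouse annotation of GRCm38. Genes named were those called, topped up to 10 at E18.5 by p, the 6 largest rises and falls with age, and 19 fixed genes; other members, such as Sema7a, Efnb2 and Robo4, were named after their values were seen. Alternatives were DESeq2 1.42.0, no TMM factors, other filters, a replicate block, counts as deposited, E18.5 libraries summed by the first part of their number, a striatal covariate and leaving out each library.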

Additional observations from a re-analysis of the deposited data

Results flagged for a closer look

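Of 116 sets of replicate libraries examined over the named genes, 4 held a library far from the rest, where chance gives about 1 in 20, or 5.8. Unc5c stood at 66.5 CPM in control replicate 1-2 at E18.5, with the other 5 libraries at 50.6 to 54.8 CPM. Ntng2 stood at 42.8 CPM in control replicate 3 at 7 weeks, with the others at 50.1 to 51.7 CPM, so the change reported for Ntng2 was measured against a group with 1 low library. In TETA replicate 4 at 7 weeks, Robo2 stood at 169 CPM (others 158 to 160 CPM) and Efnb3 at 83.2 CPM (others 95.7 to 96.2 CPM).

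The TETA effect differed between the ages for 2 of 70 members (2.86%) by the interaction test of edgeR over all 21 libraries, a share near the 3.1% of all genes. For Sema4a it was larger at 7 weeks by 0.31 (SE 0.065) on the log2 scale, with all 4 TETA libraries above all 5 controls at that age. For Efnb1 it was larger by 0.37 (SE 0.10), with 3 of 4 TETA libraries above all controls, and this call was lost in 15 of 21 fits that left out 1 library. Striatal markers were lower in TETA libraries at 7 weeks and their part in these differences was not tested.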

How the results depend on the processing

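At E18.5 no setting called a member, including the replicate block, and all 189 alternative values of the 10 members with the smallest p kept their direction and side of the threshold; the other members were not followed singly there, and the count above 0 ran from 40 to 52 of all members tested. At 7 weeks, where 14 members were called, the replicate block called 12 (Sema6b and Unc5d were lost), DESeq2 13 and the fit without TMM factors 13; leaving out 1 library gave 8 to 14. The striatal covariate gave 0, and turned the direction of Epha10 (-0.051), Robo3 (-0.28), Ntn5 (-0.034), Sema3e (0.33), Nrp1 (-0.068), Nrp2 (-0.45), Epha5 (0.027), Slit1 (-0.11), Dcc (0.11) and Unc5c (0.62). Among the genes followed singly at 7 weeks, leaving out 1 library also turned 3 estimates near 0: Nrp1 ran from -0.037 to 0.10, Nrp2 from -0.057 to 0.044 and Efnb3 from -0.016 to 0.054. Members called in the age comparison numbered 34 to 41 in control libraries and 39 to 41 in TETA libraries over all settings. For the difference between ages, DESeq2 called 5 members, adding Ntng2, Slit2 and Sema6b, the counts as deposited called 1, and leaving out 1 library gave 1 to 4. Except where stated, the cause was not tested. Replicate numbers did not pair the libraries: deviations of same-numbered libraries had correlations of -0.275 to 0.284 at E18.5 and -0.0692 to -0.0295 at 7 weeks.
Depth limits Ntn5 at E18.5 and Efna4 at 7 weeks, both under 1 CPM.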
